A study of Mus musculus with 3 samples.

Results

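The endothelin system is a short peptide signalling pathway with 7 genes examined here: the ligand genes Edn1, Edn2 and Edn3, the receptor genes Ednra and Ednrb, and the converting enzyme genes Ece1 and Ece2. They were chosen by gene symbol from a list, with their levels in these same libraries already known, so their levels and their differences between libraries are given as descriptions, with no test. All 7 symbols matched 1 Ensembl row each, out of 41388 genes in the tables. Each of the 7 had at least 1 read in every library.

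RNA was sequenced from dorsal root ganglion (DRG) cells of mouse embryos at 12.5 days post coitum, sorted by flow cytometry for EGFP reporting Ret, the receptor tyrosine kinase of GDNF family ligands. Library D pooled 60 ganglia from 3 embryos, library B 340 from 17 and library C 300 from 15, in each case from lower thoracic to first sacral levels, from different mothers and from both sexes. The strain was C57BL/6. The sample labels give the genotype as Tg(Ret-EGFP)SJ/, whereas the series text has EGFP knocked into 1 Ret allele of heterozygous embryos; which is right is not settled by the sources used here. All 3 libraries carry the reporter and belong to 1 group, so there was no reporter-negative, wild-type or treated reference, and each library is a single pool.

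Endothelins are made as long precursors. Proprotein convertases such as furin cut these to inactive big endothelins, and the membrane metalloproteases encoded by Ece1 and Ece2 release the short active peptide. The peptide acts on G protein-coupled receptors: the Ednra product prefers endothelin-1 and endothelin-2, and the Ednrb product binds all the endothelins about equally. In mouse, signalling by endothelin-3 through Ednrb is needed by neural crest cells that form the enteric nervous system and melanocytes, and endothelin-1 acts through Ednra in the crest of the face. Ednrb is also known as a gene of migrating neural crest and of Schwann cell precursors.

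The 3 ligands differ at a minority of bases in the stretch that encodes the active peptide. These stretches are shown because they encode what the receptors bind. Each runs 5′ to 3′ on the plus strand of GRCm38, was read from the GENCODE M21 transcript of the gene, and lies in exon 2. Capitals mark the cysteine codons, whose products form the disulphide bridges of the peptide.
Edn1, chr13:42303649-42303711: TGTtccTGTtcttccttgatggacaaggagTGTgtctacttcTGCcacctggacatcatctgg
Edn2, chr4:120161951-120162013: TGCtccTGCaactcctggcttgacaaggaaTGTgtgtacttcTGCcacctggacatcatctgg
Edn3, chr2:174761749-174761811: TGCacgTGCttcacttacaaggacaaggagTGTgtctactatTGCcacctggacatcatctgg

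Of these 63 bases, Edn1 and Edn2 shared 53, Edn1 and Edn3 shared 50, and Edn2 and Edn3 shared 48. The cysteine codons stand at the same places in all 3 sequences. Reads were counted over far longer exons. Edn1 spans chromosome 13, 42301270 to 42307989, with 2344 exon bases, Edn2 spans chromosome 4, 120161206 to 120167360, with 1462, and Edn3 spans chromosome 2, 174760619 to 174784042, with 4113. All 3 lie on the plus strand, and none shares exon bases with another gene in the tables.

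Total counts were 20966139 in D, 18072199 in B and 11666241 in C. Levels are given as TPM (a measure of transcript share: reads per base of gene, scaled to the same sum over all genes in each library). The limit of detection was set at 1 TPM, to be met by all 3 libraries, and 11896 genes met it, 50.5% of the 23553 with any read. Of the 7 endothelin system genes, 4 were detected: Ednrb, Ece1, Ece2 and Edn1. TPM also carries a scale between the libraries: at an equal RPKM, the deposited value per kilobase and library total, a gene's TPM in D was at least 1.36 times that in B or C. Ratios of D to B and C are therefore given below from TMM-scaled CPM (counts relative to library sizes adjusted by edgeR's trimmed mean), and the TPM ratio is named where it differs much. Neuron markers, among them Tubb3 and Isl1, were detected for 12 of 12 genes, as the DRG label implies. The series title calls the sorted cells neurons, and glia markers were detected as well, for 9 of 11 genes.

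**Figure D1:**
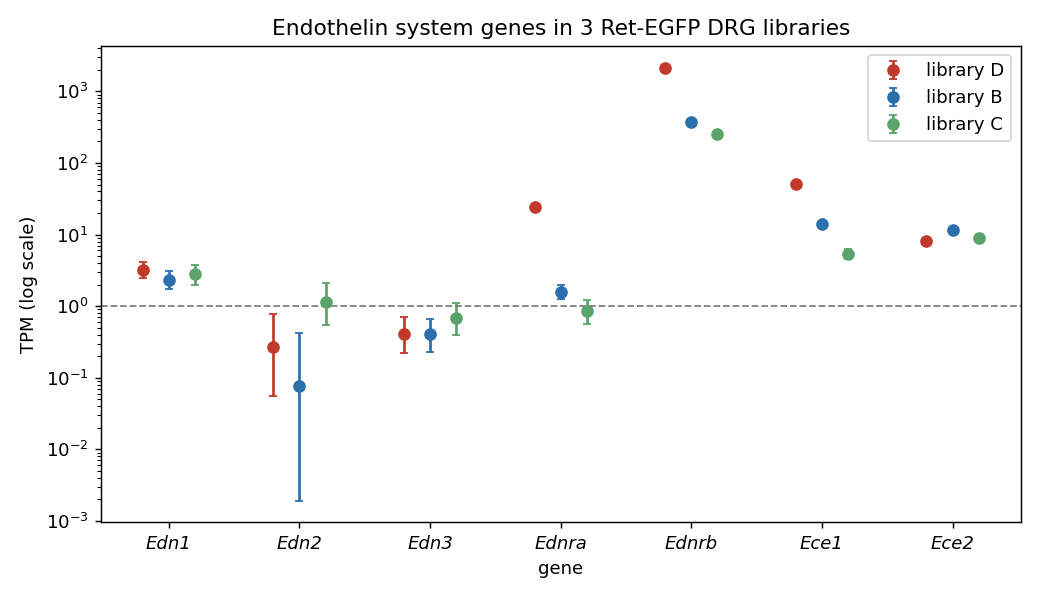
TPM of each of the 7 endothelin system genes (log axis) in libraries D, B and C. Points are the 3 pools, bars are exact 95% Poisson intervals of the count, which cover counting error only, and the dashed line is the detection limit of 1 TPM. Ednrb lies at 254 TPM or more in every library, and Edn2 and Edn3 lie near or below 1 TPM.

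Ednrb carried nearly all of the family's RNA. It stood at 2138 TPM in D, 375 TPM in B and 254 TPM in C, a mean of 922 ± 1055 TPM (SD, n = 3). D was the high library and lay far above both others, so the SD exceeds the mean, and B and C alone averaged 314 TPM. In bulk samples such as these, fewer cells of a type and less RNA per cell cannot be told apart. By TPM Ednrb was the 36th most abundant gene of D, the 465th of B and the 649th of C. It took 0.317% of all reads in D, 0.0756% in B and 0.0526% in C. Summed over the 7 genes, 93.8 ± 1.93% of the TPM was Ednrb (SD, n = 3), with 96.0% in D, 92.6% in B and 92.7% in C. That share moved little between libraries while the level itself differed several-fold. So near its ceiling a share has little room to rise, and its steadiness does not show that the other genes moved with Ednrb. Ednrb lies on chromosome 14, 103814625 to 103844173, on the minus strand of GRCm38, and none of its 4037 exon bases is shared with another gene in the tables.

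Ednra, the other receptor gene, was scarce. It stood at 24.6 TPM in D (1040 reads), 1.58 TPM in B (78 reads) and 0.853 TPM in C (28 reads). It was above 1 TPM in D and B, and in C its exact 95% Poisson interval ran from 0.567 to 1.23 TPM, across the detection limit. The mean of 9.02 ± 13.5 TPM (SD, n = 3) rests on D, since B and C alone averaged 1.22 TPM. With 0.1 TPM added to each gene, as in all ratios between genes here, Ednrb exceeded Ednra 86.4-fold in D, 224-fold in B and 266-fold in C. The mean log2 ratio was 7.43 ± 0.87 (SD, n = 3), and the order held in 3 of 3 libraries. The excess was smallest in D, where Ednra was highest. Ednra (chromosome 8, 77663031 to 77724464, minus strand) shares 91 of its 5476 exon bases with 4933431K23Rik, a gene on the opposite strand that had 12, 13 and 27 reads in D, B and C.

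The enzyme genes were intermediate and did not keep an order. Ece1, which encodes the main endothelin-converting enzyme, stood at 51.5 TPM in D, 14.0 TPM in B and 5.38 TPM in C, a mean of 23.6 ± 24.5 TPM (SD, n = 3). Its libraries were spread, with D highest and C lowest. It lies on chromosome 4, 137862237 to 137965229, plus strand, with 5300 exon bases that no other gene in the tables shares. Ece2, which encodes a relative found mostly in neural and endocrine cells, stood at 8.26 TPM in D, 11.5 TPM in B and 8.99 TPM in C, a mean of 9.57 ± 1.68 TPM. D was the lowest library of Ece2. Ece1 over Ece2 gave a log2 ratio of 2.62 in D, 0.28 in B and -0.73 in C, with a mean of 0.73 ± 1.72 (SD, n = 3), so the enzymes did not differ beyond the spread between libraries. Without D the mean was -0.22, the opposite sign.

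The Ece2 row needs a caution of its own. As counted, it spans chromosome 16, 20611593 to 20646485, on the plus strand, over 6547 exon bases. In GENCODE M21, 75.4% of those bases belong to Ece2 and the other 24.6% to the neighbouring methyltransferase gene Eef1akmt4, which has no row of its own in the tables. M21 also has a read-through gene, Gm49333, over 52.4% of the row's bases. The Ece2 values here can therefore include reads of Eef1akmt4, and the 2 could not be told apart from gene totals. For Ece1, Ednra, Ednrb, Edn2 and Edn3 every counted exon base lies in M21 exons of the same gene, and for Edn1 91.2% do.

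**Figure D2:**
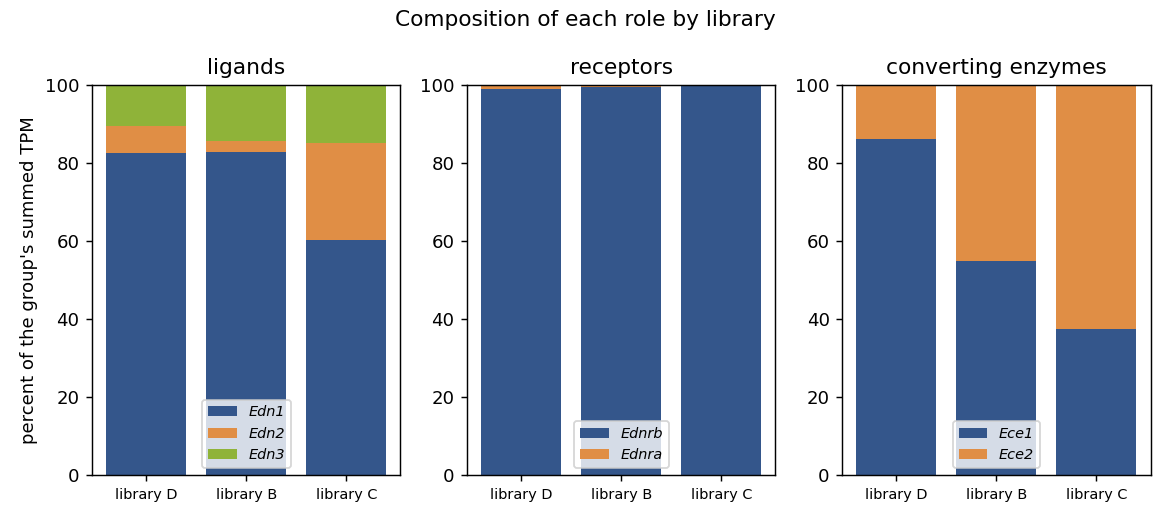
Share of each gene in the summed TPM of its role (ligands, receptors, converting enzymes), one stacked bar per library with D at the left. Ednrb makes up 98.9% or more of the receptor TPM in each library, Edn1 60.3% or more of the ligand TPM, and Ece1 86.2% of the enzyme TPM in D, 54.9% in B and 37.4% in C.

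Ligand RNA was low. Edn1, the gene of endothelin-1, known best as a product of vascular endothelium, was the only ligand gene detected in every library, at 3.21 TPM in D (58 reads), 2.32 TPM in B (49 reads) and 2.77 TPM in C (39 reads). Its mean was 2.77 ± 0.446 TPM (SD, n = 3). The exact 95% Poisson intervals, 2.44 to 4.15, 1.71 to 3.06 and 1.97 to 3.79 TPM for D, B and C, overlapped one another; they cover counting error only and say nothing of the spread between pools. Edn3, whose product acts on Ednrb in enteric and pigment crest, had 13 reads in D, 15 in B and 17 in C, which is 0.410, 0.404 and 0.689 TPM. Edn2 had 3 reads in D, 1 in B and 10 in C, which is 0.266, 0.0758 and 1.14 TPM. Edn3 was the higher of the pair in D and B and Edn2 in C, and their intervals overlapped within each library. Edn1 exceeded Edn3 in 3 of 3 libraries, with a mean log2 ratio of 2.27 ± 0.42 (SD, n = 3).

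Ranked by mean TPM the order was Ednrb, Ece1, Ece2, Ednra, Edn1, Edn3 and Edn2. Ednrb kept the first place in every library by a wide margin: it exceeded Ece1 41.5-fold in D, 26.7-fold in B and 46.3-fold in C. The neighbours Ece1 and Ece2, Ece2 and Ednra, Ednra and Edn1, and Edn3 and Edn2 changed places between libraries, so their order is not set beyond the spread. Ednra stood above Ece2 and Edn1 in D and below both in B and C. The 3 ligand genes together made up 0.175% of the family's TPM in D, 0.691% in B and 1.68% in C. The 2 enzyme genes made up 2.68% in D, 6.28% in B and 5.26% in C.

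Library D, the pool from the fewest embryos, differed from B and C at both receptor genes and at Ece1. D also had the fewest ganglia and the highest total count, which cannot be told apart from the library itself. Before any ratio could be taken, 13182 genes, 6 of the 7 among them, passed edgeR's filter on low counts; Edn2 did not. Called past 2-fold means that D differed by more than 2-fold from B and also from C. Higher in D by that rule were 3 of the 6, against 14% of all genes (1842 of 13182), and 0 of the 6 were lower, against 9.86% of all genes (1300). Against the mean of B and C instead, 3 of the 6 were past 2-fold higher, against 19.7% of all genes, and 0 were lower, against 18.1%. Because the genes were chosen with these values known, nothing is read from these counts. The median log2 ratio was 0.76 over the 6 genes and 0.02 over all genes tested.

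Ednra had the largest ratio of the 6. Its TMM-scaled CPM in D was 9.65 times that in B and 16.5 times that in C, a log2 ratio of 3.66 over their mean, and 14 of 13182 genes had a larger ratio. B and C differed at Ednra by 0.78 on the log2 scale. For Ednrb, D was 3.60 times B and 5.03 times C, a log2 ratio of 2.09 over their mean, which 3.41% of genes exceeded. B and C differed there by 0.48, close to the median absolute difference of 0.46 over all genes. By TPM the same ratios were 5.70 and 8.43 for Ednrb and 15.6 and 28.9 for Ednra. For Ece1, D was 2.33 times B and 5.67 times C, a log2 ratio of 1.86 over their mean, but B and C themselves differed by 1.28. By TPM the Ece1 ratios were 3.68 and 9.56.

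The other 3 genes lay below B and C in D without passing 2-fold against both. The log2 ratio of D over the mean of B and C was -0.996 for Ece2, with D at 0.458 times B and 0.549 times C, or 0.721 and 0.919 times by TPM. It was -0.94 for Edn3 and -0.35 for Edn1. D lay below both B and C for these 3 genes and above both for the first 3, against 40% and 42.3% of all genes. For Edn1 that order is set by the scale, since by TPM D was its highest library; for Edn3 TPM put D just above B.

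**Figure D3:**
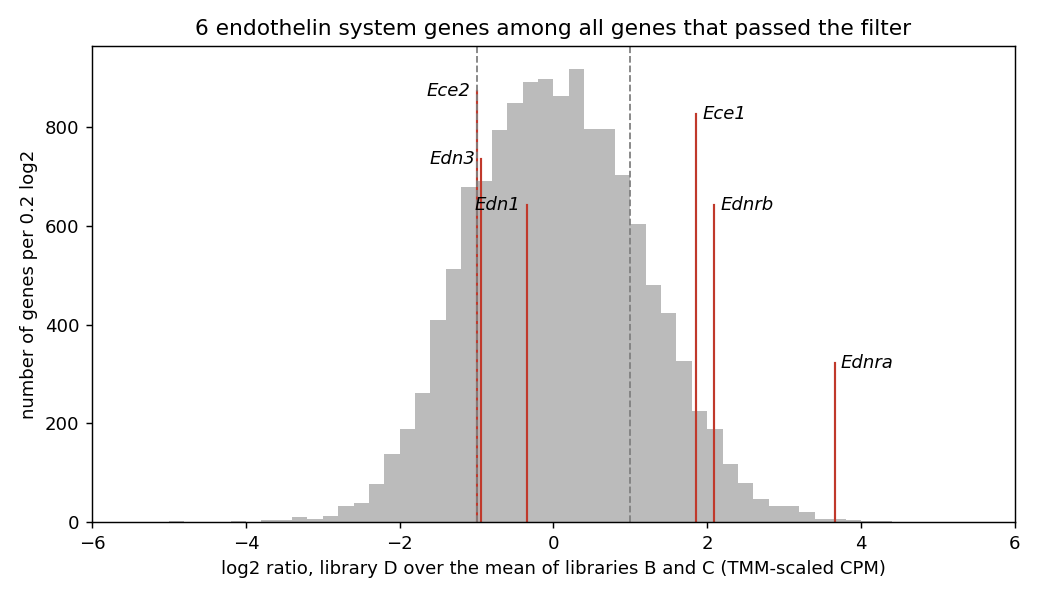
Distribution over 13182 genes of the log2 ratio of library D over the mean of libraries B and C (TMM-scaled CPM, bins of 0.2), with red lines at the 6 endothelin system genes that passed the filter and dashed lines at 2-fold. Ednra at 3.66, Ednrb at 2.09 and Ece1 at 1.86 lie on the right, and Edn1, Edn3 and Ece2 lie at or left of the centre.

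The ratio in D also varied with gene length over all genes, so each value was also set against genes of like length, in 20 bins of gene length. The median log2 ratio of the bin was 0.50 for Ednra, 0.19 for Ednrb and Edn3, 0.41 for Ece1, 0.54 for Ece2 and -0.43 for Edn1. Taking it off left 3.16 for Ednra, 1.90 for Ednrb and 1.45 for Ece1. The same step gave -1.54 for Ece2 and -1.13 for Edn3, and brought Edn1 to 0.08. It also changed calls: Ece1 then stood at 0.80 over B and was no longer past 2-fold against both, and Ece2, at -1.67 over B and -1.41 over C, was past 2-fold lower. That left 2 of 6 higher and 1 lower, against 10.2% and 6.78% of all genes.

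Spread of TPM between the pools was wide for the same 3 genes. The coefficient of variation of TPM was 150% for Ednra, 114% for Ednrb and 104% for Ece1. Among genes of 0.5 to 2 times the same mean count, 99.8% of 4462 varied less than Ednra, 95.3% of 106 varied less than Ednrb and 92.0% of 3785 varied less than Ece1. By the same measure Edn1 and Ece2 varied by 16.1% and 17.5%, with 6.25% of 2624 and 10.1% of 4382 like genes varying less. Another measure, edgeR's biological coefficient of variation on TMM-scaled counts, was 0.459 for Edn1 and 0.489 for Ece2. Both lie near the median of 0.491 over all genes. For Ednra, Ednrb and Ece1 that measure was 0.798, 0.591 and 0.586. It shares information across genes, so its distance from the TPM values does not by itself show what set the low spread. For Ece2 the scale matters: D was 0.458 times B and 0.549 times C by TMM-scaled CPM, but 0.721 and 0.919 times by TPM. Its spread of TPM is therefore narrower than its spread on the TMM scale. Edn3 varied by 32.5% and Edn2, on 10 reads or fewer in each library, by 115%.

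Some markers of other cells differed in D as well, and their part in the endothelin results was not tested. For this and every list below, the shares over all genes are 14% past 2-fold higher in D and 9.86% lower. Because the lists were chosen with earlier results known, nothing is read from their counts. Glia and Schwann cell precursor markers, a list that leaves out Ednrb, did not move as one. Their summed TPM was 2700 in D, 2690 in B and 1274 in C, none was at 0 in all 3 libraries though Mia had only 1 read, and 4 of 10 tested were past 2-fold higher in D, among them Erbb3, Cdh19 and Sox2. Erbb3, the neuregulin receptor of this lineage, had 163 TPM in D, 14.2 in B and 9.06 in C. Fabp7, the most abundant marker of the list, had 2017 TPM in D, 2487 in B and 1088 in C, and Sox10, which encodes a crest and glia transcription factor, 88.9, 53.2 and 67.9 TPM. Neither was past 2-fold against both libraries. Ednrb over Sox10 was 24.0-fold in D, 7.04-fold in B and 3.73-fold in C.

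The other lists of cells that can use endothelin receptors were lower in level. Neural crest markers were detected for 3 of 7 genes, with a summed TPM of 53.7 in D, 17.6 in B and 15.1 in C. Tfap2a and Sox9 were past 2-fold higher in D, and the other crest markers were mixed. By TMM-scaled CPM, D was 2.62 times B and 1.41 times C for Foxd3, 0.755 and 3.03 times for Pax3, and 0.701 and 1.84 times for Snai2. Zic1 had 6, 23 and 20 reads in D, B and C, and Msx1 had 0, 2 and 5. Of 7 melanoblast markers only Dct was detected in every library. The list summed to 39.5 TPM in D, 6.71 in B and 6.58 in C, and both markers tested, Dct and Kit, were past 2-fold higher in D. Dct stood at 29.3 TPM in D, 5.15 in B and 5.24 in C. Kit, the receptor gene of melanoblasts and some neurons, stood at 6.94, 0.856 and 0.829 TPM in D, B and C. The others were sparse. In D, B and C, Pmel had 37, 12 and 2 reads, Tyrp1 had 9, 2 and 1, Tyr had 8, 0 and 0, and Mitf, the defining pigment cell factor, had 13, 0 and 11, while Mlana had none. Mesenchyme markers were detected for 6 of 10, with a summed TPM of 292 in D, 56.7 in B and 47.1 in C. Of 8 tested, Postn, Col1a2 and Col3a1 were past 2-fold higher in D and Dcn lower. Postn, a matrix protein gene, made up most of the D sum at 193 TPM, whereas Pdgfra and Prrx1 stayed under 1 TPM in every library.

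Pericyte and smooth muscle markers were detected for 2 of 8, with a summed TPM of 44.3 in D, 21.4 in B and 8.69 in C. Tagln, past 2-fold higher in D, led that list at 37.0, 9.93 and 4.84 TPM in D, B and C; Pdgfrb, a defining pericyte marker, stood at 0.142, 0.486 and 0.213 TPM. Endothelium markers were detected for 2 of 10, with a summed TPM of 7.26 in D, 22.9 in B and 12.97 in C. Egfl7 and Esam were past 2-fold lower in D. By TPM, Pecam1 (2.27, 2.03 and 0.375 in D, B and C) and Tek (0.578, 0.0706 and 0) were highest in D. Tek rests on 21, 3 and 0 reads in D, B and C. Pecam1 in D was 0.713 times B and 3.39 times C by TMM-scaled CPM, so on that scale D was not its highest library. Edn1 was highest in D by TPM and lowest there by TMM-scaled CPM. Macrophage markers summed to 29.5, 38.1 and 35.2 TPM in D, B and C, with 4 of 8 detected; Csf1r was past 2-fold higher in D and C1qb lower. Erythroid markers, 4 of 9 detected, summed to 396, 2749 and 1380 TPM, with all 4 tested past 2-fold lower in D, where Gata1 and Slc4a1 were among those with 0 reads. Sympathetic markers, 5 of 8 detected, summed to 91.4, 287 and 230 TPM, with 4 of 6 tested past 2-fold lower. Neuron markers summed to 32920, 59979 and 47305 TPM in D, B and C, with 5 of 12 past 2-fold lower in D, among them Sncg and Stmn2, and 1 higher, Pou4f1.

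**Figure D4:**
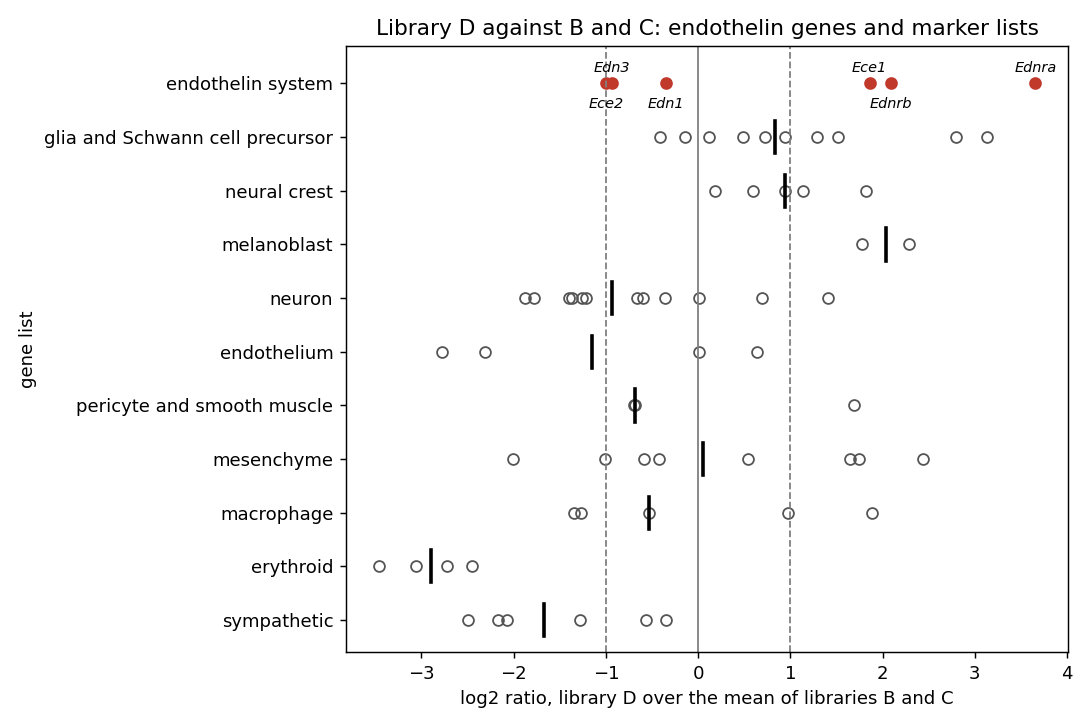
Log2 ratio of library D over the mean of libraries B and C (x axis) for the 6 endothelin system genes tested (red, named) and for the tested genes of each marker list (open circles, bar at the list median). Ednra at 3.66 lies to the right of every marker shown. Ednrb at 2.09 and Ece1 at 1.86 lie within the ranges of the glia, melanoblast and mesenchyme lists, and Ece1 also within that of the macrophage list.

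Of 7 proprotein convertase genes 4 were detected: Pcsk2 at 33.4 ± 14.5 TPM (SD, n = 3), Pcsk7 at 15.6 ± 13.1 TPM, Pcsk1 at 6.33 ± 3.42 TPM and Furin, the classical precursor-cutting enzyme, at 2.21 ± 1.19 TPM. None of 5 tested was past 2-fold in D in either direction. The other M13 metalloproteases, the family to which the converting enzymes belong, were detected for 0 of 5, beside the 50.5% of all genes with any read. Among them Mme, whose product neprilysin breaks down endothelins and other peptides, stood at 12.3 TPM in D, 0.758 TPM in B and 1.49 TPM in C. It was past 2-fold higher in D, at 9.69 times B and 4.79 times C. Ecel1, known in mouse for its part in motor axon arbours, stayed at 0.519 TPM in D, 1.05 in B and 0.619 in C.

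Downstream, 8 of 9 G protein alpha subunit genes were detected. Gnaq, whose product couples endothelin receptors to phospholipase C, led at 114 ± 80.9 TPM (SD, n = 3), followed by Gnai2 at 107 ± 33.2 TPM and Gnai3 at 99.6 ± 80.2 TPM. Gnai3 was past 2-fold higher in D, the only one of 9. Of 7 phospholipase C beta and IP3 receptor genes 3 were detected, Plcb3 at 7.16 ± 3.36, Plcb1 at 5.02 ± 1.79 and Plcb4 at 4.06 ± 1.76 TPM. Itpr1, an IP3 receptor gene below the detection limit in B and C, was past 2-fold higher in D at 2.50 TPM, against 0.383 in B and 0.440 in C. Receptor kinase and arrestin genes, which switch such receptors off, were detected for 5 of 7, led by Arrb2 at 17.3 ± 8.45, Arrb1 at 12.6 ± 5.76 and Grk2 at 12.2 ± 1.28 TPM. Grk5 was past 2-fold higher in D, at 7.42 TPM, against 1.86 in B and 1.95 in C.

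RGS genes, whose products shorten G protein signalling, were detected for 3 of 6: Rgs4 at 224 ± 129, Rgs2 at 9.66 ± 1.15 and Rgs16 at 6.64 ± 6.08 TPM, with 0 of 5 tested past 2-fold in D. A list of other peptide receptor genes of neural cells set the level of Ednrb in context. Of its 14 genes 3 were detected, Gpr37 at 28.2 ± 35.4, Agtr2 at 8.25 ± 6.51 and Sstr2 at 4.44 ± 2.15 TPM, all far below Ednrb in each library. Gpr37, a receptor gene of glia, was past 2-fold higher in D, at 69.0 TPM in D, 10.7 in B and 5.04 in C. So was the bradykinin receptor gene Bdkrb2, at 6.41, 0.792 and 0.993 TPM in D, B and C.

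Ednrb and Edn3 belong with other genes whose loss disturbs neural crest derivatives in people or mice, as in Hirschsprung disease and Waardenburg syndrome. Among 14 such genes, 8 were detected, led by Nrg1 at 168 ± 99.3 TPM (SD, n = 3), Sox10 at 70.0 ± 17.9 TPM and L1cam at 55.7 ± 28.6 TPM. Ret itself, the sort's reporter gene, stood at 60.9 TPM in D, 26.9 in B and 33.5 in C. By TMM-scaled CPM, Ret in D was 1.43 times B and 1.08 times C. Ednrb exceeded Ret 35.1-fold in D, 13.9-fold in B and 7.54-fold in C. Past 2-fold higher in D were 4 of 12 tested, against 14% of all genes: Kit, Zeb2, Kitl and Tfap2a. Zeb2, a transcription factor gene of crest and glia, had 16.8 TPM in D, 3.87 in B and 2.82 in C.

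The genes closest to Ednrb in level and pattern were sought among the 11895 other detected genes, by Euclidean distance over the 3 libraries in log2(TPM + 0.1). They were Serpinh1 at a distance of 0.94, Maged1 at 1.05, Eef2 at 1.09, Marcks at 1.10 and Sox11 at 1.14. Serpinh1, a collagen chaperone gene, had 1154 TPM in D, 461 in B and 268 in C. None came within 0.9 of Ednrb, whereas the closest genes to the other members lay nearer: Uhrf1 at 0.18 of Ece1, Pwwp2b at 0.05 of Edn1 and Tekt1 at 0.06 of Ece2. Next were Mbd1 and Amotl1 for Ece1, Mllt6 and Nkain2 for Edn1, and Rpl11 and C8g for Ece2. With 3 libraries, and at levels where many genes lie, such nearness is a description only.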

How the data were processed

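The authors deposited raw counts of reads, CPM and RPKM over 41388 Ensembl identifiers, beside each gene's exons and length, in a separate table for each library. Tested on the values, the deposited CPM is the count over the file total and the deposited RPKM is that CPM per kilobase. Per the submitters' processing notes, Subread, featureCounts 1.4.5 and build GRCm38.p2 were named, without roles. For the annotation release, strand setting and read filters: not given in the sources used here. Per the labels' protocols, cDNA came from a low-input SMARTer kit. No strand marking is described for it, so reads of overlapping genes on opposite strands cannot be told apart.

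The deposited counts were used throughout. Symbols matched 40254 identifiers. TPM was computed from count and length. CPM was scaled by TMM in edgeR 4.0.16 after filterByExpr (minimum count 10), as log2 with a prior count of 2, and D was set against B and C as a ratio past 2-fold, with no test. Intervals of counts are exact 95% Poisson intervals (scipy 1.17.1). They cover counting error only, and treat reads as independent. Amplified cDNA read without molecular identifiers does not give independent molecules, so the intervals can be too narrow. A count of 0 allows up to 3 counts, 0.143, 0.166 and 0.257 CPM in D, B and C. The labels call the libraries separate pools from different mothers.

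The 7 genes and the gene lists were chosen with earlier results of these data known. Named genes of each list are the 3 highest in mean TPM or those past 2-fold in D, up to 4 by size, plus defining markers chosen after their values were seen. For marker lists a selection of these is printed, and some marker genes are not reported here. Alternatives were other scalings (DESeq2 1.42.0 size factors, library totals), CPM, protein-coding TPM (GENCODE M21), other limits, pseudocounts and prior counts, a gene length correction and each library left out. Symbol Kifbp had no row and was not analysed here.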

Additional observations from a re-analysis of the deposited data

How the results depend on the processing

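Of 82 alternatives tried on the main results, 68 left the value within the spread between libraries, or a count within 1.5 times. For a ratio or share, leaving a library out could turn a sign but, by arithmetic, could not move the value beyond that spread. Those alternatives therefore say nothing of stability. Ednrb over Ednra stayed positive in all 5 alternatives tried on it, with mean log2 ratios between 6.89 and 7.93. The log2 ratio of D over B and C lay for Ednrb between 1.85 and 2.33, that of Ednra between 3.16 and 4.05 and that of Ece1 between 1.22 and 2.50 over 6 alternatives each.

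Signs turned for 2 results. Ece1 over Ece2 was -0.22 without D, the lowest of the values with a library left out, which ran up to 1.45 without C. Edn1 in D was 0.085 with the gene length trend removed, because the bin median taken off lies below the ratio itself. For Ece2 in D the log2 ratio was -0.76 with library totals, which raise the median of all genes to 0.26, and -1.54 with the length trend removed. Genes past 2-fold in D came to 312 higher and 74 lower at 4-fold, and to 3001 higher with no filter, where more genes are tested. With B or C left out, 2484 to 2924 were higher and 1966 to 2737 lower, since D then has to differ from 1 library alone. Of the 6 members tested, 3 higher and 0 lower became 1 higher (Ednra) at 4-fold, 2 higher and 1 lower (Ece2) with the length trend removed, and 1 lower with B or C left out: Edn3 without B and Ece2 without C. At 4-fold 80.8% of calls were higher, against 58.6% at 2-fold.

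Members detected ranged from 3 at 5 TPM to 5 at 0.5 TPM, 1 CPM or without C. Among single genes, 16 of 69 alternatives moved a level or coefficient of variation beyond its tolerance. A level could not be moved that far by leaving a library out, again by arithmetic. Without D the coefficient fell to 0.274 for Ednrb and to 0.423 for Ednra. Depth limits Edn2 and Edn3 most, at 17 reads or fewer in each library. No paired analysis was possible because there is 1 group.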
